A study of Mus musculus with 45 samples.

Results

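The genes described here are 9 transcripts that mark and run the signalling of the spiny projection neurons of the striatum: Drd1, Pdyn and Tac1 of the direct pathway, Drd2, Adora2a and Penk of the indirect pathway, and Ppp1r1b, Rgs9 and Pde10a, which both pathways use. They were chosen by name, from what is known of these neurons, out of 18135 genes in the table, and all 9 were measured and had a mean above the minimum of 10 that a gene needed to be tested, in every fit. RNA was sequenced from the prefrontal cortex (here cortex), the hippocampus and the striatum of male C57BL/6J mice of 13 weeks. In each region 5 mice were WT, 5 were heterozygous (Shank3-HT) and 5 were homozygous, labelled knock-out (Shank3-HM), for a Shank3 allele that lacks exons 14 to 16, which gives 45 samples. SHANK3 is a scaffold protein of excitatory synapses that is abundant in the striatum. Values are normalized counts, so that levels may be compared between samples for a gene but not between genes, since they are not divided by transcript length. Differences are given on the scale of log2(value + 1) with the SE of limma and a p value adjusted by the Benjamini-Hochberg method over all genes tested.

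Spiny projection neurons make up most neurons of the striatum and are inhibitory. Those of the direct pathway project to the output nuclei of the basal ganglia and carry the D1 dopamine receptor, which raises cAMP, whereas those of the indirect pathway project to the external pallidum and carry the D2 dopamine receptor, which lowers cAMP, together with the adenosine receptor that Adora2a encodes, which raises it. Protein kinase A then phosphorylates DARPP-32, the protein of Ppp1r1b, an inhibitor of protein phosphatase 1. PDE10A breaks down cyclic nucleotides, and RGS9 shortens signalling by G proteins of the inhibitory kind. The peptides differ as well: dynorphin from Pdyn and substance P from Tac1 belong to the direct pathway, and enkephalin from Penk to the indirect pathway.

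The upstream sequences of the 3 direct pathway genes are shown because these genes gave the highest differences between Shank3-HM and WT striatum among the 9, and that of Drd2 is set beside them as an indirect pathway gene. Each is the 250 bases before an annotated transcript start, from RefSeq on GRCm38.p6, 5′ to 3′ on the strand of the gene. Capitals mark matches to the core of the cAMP response element, TGACG or its reverse complement CGTCA, to which CREB, a target of protein kinase A, binds.
Tac1, chr6:7554811-7555060, plus strand: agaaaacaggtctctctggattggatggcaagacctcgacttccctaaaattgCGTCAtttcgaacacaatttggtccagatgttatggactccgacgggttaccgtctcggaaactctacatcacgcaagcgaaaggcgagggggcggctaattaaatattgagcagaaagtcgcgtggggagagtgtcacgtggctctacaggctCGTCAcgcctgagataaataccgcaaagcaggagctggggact
Pdyn, chr2:129699939-129700188, minus strand: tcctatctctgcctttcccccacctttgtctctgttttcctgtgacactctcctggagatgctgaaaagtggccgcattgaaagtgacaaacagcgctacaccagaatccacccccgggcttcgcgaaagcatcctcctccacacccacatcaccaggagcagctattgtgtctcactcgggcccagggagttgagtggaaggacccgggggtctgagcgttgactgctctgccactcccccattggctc
Drd1, chr13:54055659-54055908, minus strand: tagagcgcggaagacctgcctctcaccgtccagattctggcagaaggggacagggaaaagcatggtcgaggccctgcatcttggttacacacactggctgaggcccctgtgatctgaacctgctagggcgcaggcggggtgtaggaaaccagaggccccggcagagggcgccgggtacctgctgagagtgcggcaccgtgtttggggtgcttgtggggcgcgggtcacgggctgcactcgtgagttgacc
Drd2, chr9:49340153-49340402, plus strand: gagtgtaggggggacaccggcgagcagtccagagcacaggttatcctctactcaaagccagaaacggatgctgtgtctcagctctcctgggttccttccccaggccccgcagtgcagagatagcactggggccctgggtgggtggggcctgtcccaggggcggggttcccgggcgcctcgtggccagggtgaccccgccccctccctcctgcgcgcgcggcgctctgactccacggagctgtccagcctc
Tac1 held the core at 2 places, starting 197 and 43 bases before the RefSeq transcript start. That start lies 182 bases downstream of the gene start that GENCODE gives, so that the last 182 bases of its window, with the match at 43 bases, are inside the gene as annotated there, and the match at 197 bases is outside it. The start used for Drd1 is 47 bases downstream of the GENCODE gene start, and those of Pdyn and Drd2 are 94 and 224 bases upstream of it. That of Rgs9 is 52 bases upstream. The start used for Pde10a is 276373 bases downstream, so that all 250 bases of its window are inside the gene and not before it. The windows of Pdyn, Drd1 and Drd2, like those of Rgs9 and Pde10a, held none, and none of the 6 held the full element TGACGTCA, which contains the core on both strands, or the AP-1 letters TGAGTCA or TGACTCA. Of 32851 RefSeq promoters, 17.8% held the core in a window of the same length, 1.55% the full element and 4.46% the AP-1 letters, both strands searched. A match is a description of letters and not a binding site. Entries were matched for 6 of the 9 genes, by symbol, the others being Adora2a, Penk and Ppp1r1b. For Drd1, Pdyn and Pde10a the table holds 2 starts, of which 1 was used.

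The samples matched their labels with 1 exception. Counts of Shank3 itself, which cover the whole gene and not the deleted exons alone, were 3689 to 4446 in Shank3-HM cortex and 6985 to 8717 in WT cortex, and 4569 to 6242 in Shank3-HM striatum and 11309 to 12739.8 in WT striatum. All 12 markers of spiny projection neurons tested were higher in WT striatum than in WT cortex, and all 10 markers of cortical excitatory neurons were lower. Cortex HM replicate 2 stood apart, with levels of striatal genes far above those of the other 14 cortex samples, and the cortical comparison of Shank3-HM with WT is given below with and without it. In the striatum, WT replicate 5 had the lowest level of spiny projection neuron markers of the 15 samples (a mean log2 level of 13.19 against 13.30 to 13.69 in the others) and the highest level of cortical markers (9.22 against 5.25 to 9.07). Choroid plexus markers were high in striatum HT replicate 5 (10.69 against 3.29 to 6.15 in the other 14). In tissue samples like these, fewer cells of a type and less RNA per cell cannot be told apart.

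All 9 genes were far higher in the striatum than in both other regions. Between WT samples, the striatum exceeded the cortex by log2 2.24 for Pdyn up to 8.16 for Drd2, and the hippocampus by 3.11 for Pdyn up to 7.66 for Adora2a. All 9 passed the test in both contrasts, with adjusted p values of at most 3.64e-12 and 4.34e-16. Of all genes tested in the same fit of 9 groups, 30.0% were called higher in WT striatum than in WT cortex, and 27.8% higher than in WT hippocampus, so a call alone is common between regions. The size of the differences is not particular to the 9 genes. The 12 spiny projection neuron markers were higher in WT striatum by log2 2.65 to 8.36 than in WT cortex and by 2.75 to 9.65 than in WT hippocampus. For 8 of the 9 genes every striatal sample, whatever its genotype, lay above all 30 samples of the other regions. The exception was Pdyn, whose level in cortex HM replicate 2 (2329) exceeded that of the lowest striatal sample, HT replicate 3 (1917).

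Of the direct pathway genes, Drd1 (chr13:54051183-54055705, minus strand), the D1 receptor gene, had normalized counts of 8943, 8758, 9122, 8948 and 7318 in WT striatum and of 152, 166, 143, 199 and 184 in WT cortex, a ratio of means of 51.1. Its hippocampal counts were lower still, at 72.2, 127, 106, 67.6 and 79.6, and the difference between WT hippocampus and WT cortex passed the test (log2 -0.92 (SE 0.348, adjusted p = 0.0263)). Tac1 (chr6:7554879-7565834, plus strand), the precursor gene of substance P, had a WT striatal mean of 5409 ± 284 (SD, n = 5) against 233 ± 29.6 in the cortex, a ratio of 23.2. Pdyn (chr2:129686565-129699844, minus strand), the precursor gene of dynorphin, was the least confined of the 9 to the striatum, with WT means of 2565 ± 234 in the striatum, 543 ± 41.6 in the cortex and 296 ± 22.7 in the hippocampus (SD, n = 5 each). Its striatal level was 4.73 times the cortical and 8.67 times the hippocampal mean, and it too was lower in WT hippocampus than in WT cortex (log2 -0.87 (SE 0.214, adjusted p = 0.000737)).

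Of the indirect pathway genes, Drd2 and Adora2a had the widest gaps of the 9 between striatum and cortex. Drd2 (chr9:49340627-49408177, plus strand), the D2 receptor gene, had counts of 8739.8, 9008, 8203, 8569 and 6469 in WT striatum and only 28.1, 30.6, 24.8, 27.8 and 26.5 in WT cortex, which makes a ratio of means of 297. In the hippocampus its WT counts were 61.7, 54.0, 60.7, 60.2 and 76.0, all above the cortical ones, and the ratio of striatum to hippocampus was 131. Adora2a (chr10:75316877-75334784, plus strand), the adenosine receptor gene, had a ratio of 147 over the cortex and 206 over the hippocampus, its counts being 10338, 10191, 10017, 10218 and 7746 in WT striatum and 39.9, 44.7, 59.8, 45.6 and 45.8 in WT hippocampus. Penk (chr4:4133531-4138819, minus strand), the precursor gene of enkephalins, was close to Drd1 in this respect, with 46186, 51967, 41758, 40151 and 33624 in WT striatum and a ratio of 48.9 over the cortex, where its counts were 804, 961, 900.2, 807 and 901.

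The 3 genes that both pathways use kept a larger level outside the striatum relative to their striatal level than Drd2 and Adora2a did. Ppp1r1b (chr11:98348404-98357796, plus strand) had a WT mean of 49182 ± 5696 in the striatum, 1721 ± 208 in the cortex and 1356 ± 293 in the hippocampus (SD, n = 5 each). Pde10a (chr17:8525372-8986648, plus strand) had 55686 ± 6796 in WT striatum, and its cortical and hippocampal WT means, 2286 ± 465 and 2198 ± 281, differed by less than the spread between mice. The striatal to cortical ratios were 28.6 for Ppp1r1b, 67.5 for Rgs9 (chr11:109225355-109298129, minus strand) and 24.4 for Pde10a. Rgs9 had WT striatal counts of 19204, 20539, 19517, 19631 and 15467, and in WT hippocampus its lowest and highest counts were 307.2 and 358.9.

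Between WT hippocampus and WT cortex, only Drd1 and Pdyn passed the test, both lower in the hippocampus, where 23.3% of all genes were called lower and 23.3% higher. The count of 2 depended on 1 library that is in neither group but enters the shared estimate of the spread: without cortex HM replicate 2 in the fit, 7 of the 9 were called, namely Drd1, Pdyn, Tac1 (log2 -0.60), Penk (-0.77) and Ppp1r1b (-0.37) lower and Drd2 (1.15) and Rgs9 (0.26) higher in the hippocampus, where that fit called 23.8% of all genes lower and 23.7% higher. It was 1 without any of cortex WT replicate 4, hippocampus WT replicate 1 and hippocampus WT replicate 4. Ordered by the means of the 9 groups, each gene had the 3 striatal groups first and Shank3-HM cortex, which holds replicate 2, next. Without that sample Shank3-HM cortex still came next for Drd1, Pdyn, Tac1, Adora2a and Pde10a, but was in place 5 for Penk (a mean of 839) and Ppp1r1b (1775), after another cortical group, and in place 7 for Drd2 (38.1) and Rgs9 (311), after the 3 hippocampal groups. The other cortical groups came before the hippocampal ones for Drd1, Pdyn, Tac1, Adora2a, Penk and Ppp1r1b and after them for Drd2 and Rgs9, and the order was mixed for Pde10a. Of the 8 steps between neighbouring groups, only 1 or 2 per gene separated groups whose ranges did not overlap, and the only such step between genotypes of a region was that of Tac1 in the striatum, between Shank3-HM and WT.

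**Figure D1:**
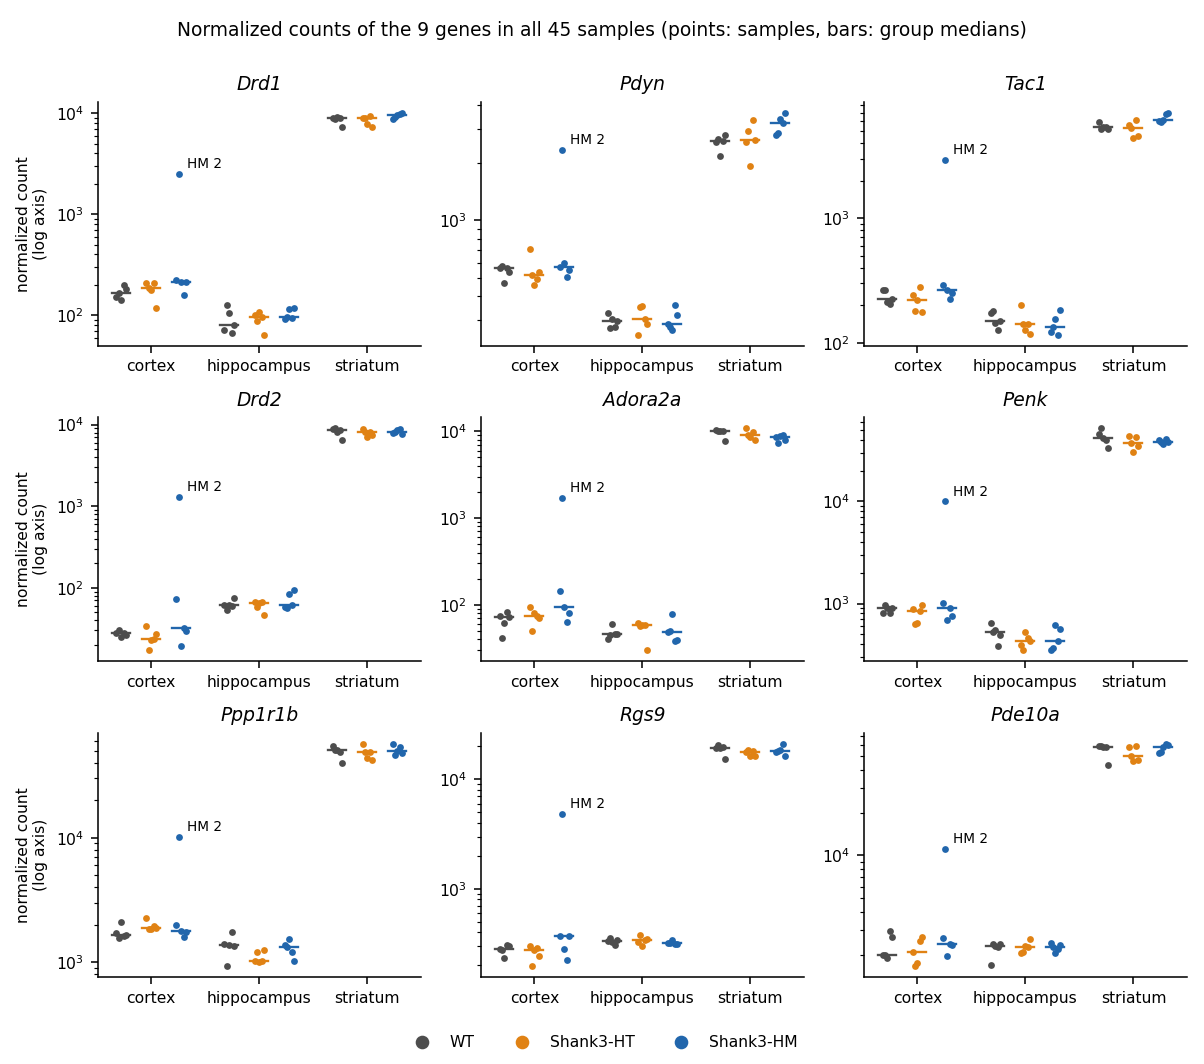
Normalized counts (log axis) of the 9 genes in all 45 samples, grouped by region and coloured by genotype, with each point a sample and each bar a group median. The striatal samples lie above all others for each gene except Pdyn, and cortex HM replicate 2 (HM 2) lies above the other cortical samples in every panel and below the striatal ones in all but that of Pdyn, at 2329 for Pdyn and 1312 for Drd2.

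Cortex HM replicate 2 carried all 9 genes at levels above every other cortex sample. Its normalized counts were 1312 for Drd2, 1692 for Adora2a and 10018 for Penk, against medians of 27.6, 74.4 and 871 in the other 14. For the direct pathway genes they were 2483 for Drd1, 2909 for Tac1 and 2329 for Pdyn, against medians of 186, 232 and 545. The fold over the median ran from 4.27 for Pdyn to 47.6 for Drd2, and Drd2, Adora2a and Rgs9, with the widest gaps between WT striatum and WT cortex, had the highest folds. All 12 markers of spiny projection neurons were likewise above all 14 other samples, markers of striatal interneurons reached a mean log2 level of 9.05 against 7.11 to 7.65 in the others, although their summed count of 8810 was within the range of the others (7681 to 8825), and 9 of 10 markers of cortical excitatory neurons were below all 14, at a median of 55.9% of their cortical median.

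Measured as a share of the distance from the cortical median to the mean of WT striatum, on the scale of normalized counts, the sample did not place all 9 genes alike. Drd2 lay at 15.7%, Pde10a at 16.7%, Adora2a at 16.8% and Ppp1r1b at 17.5%, close to the median of 15.7% of the 12 spiny projection neuron markers, which ranged from 8.03% to 32.0%. Penk lay at 21.8%, Rgs9 at 24.6% and Drd1 at 27.2%, within the range of those markers. Tac1 at 51.7% and Pdyn at 88.3% lay above all 12 markers. The order of the others depended on the scale. On the log2 scale Rgs9 lay at 67.8%, Drd2 at 67.7%, Drd1 at 67.6%, Adora2a at 64.1%, Penk at 62.9%, Ppp1r1b at 52.1% and Pde10a at 50.3%. The median of the 12 markers was 51.4% there and their highest 71.1%, and Tac1 (80.3%) and Pdyn (94.0%) were again above all 12. The peptide genes of the direct pathway were nearer to the level of dissected WT striatum in this sample than the receptor and phosphodiesterase genes were, and since the sample is a single library this has no replicate error.

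**Figure D2:**
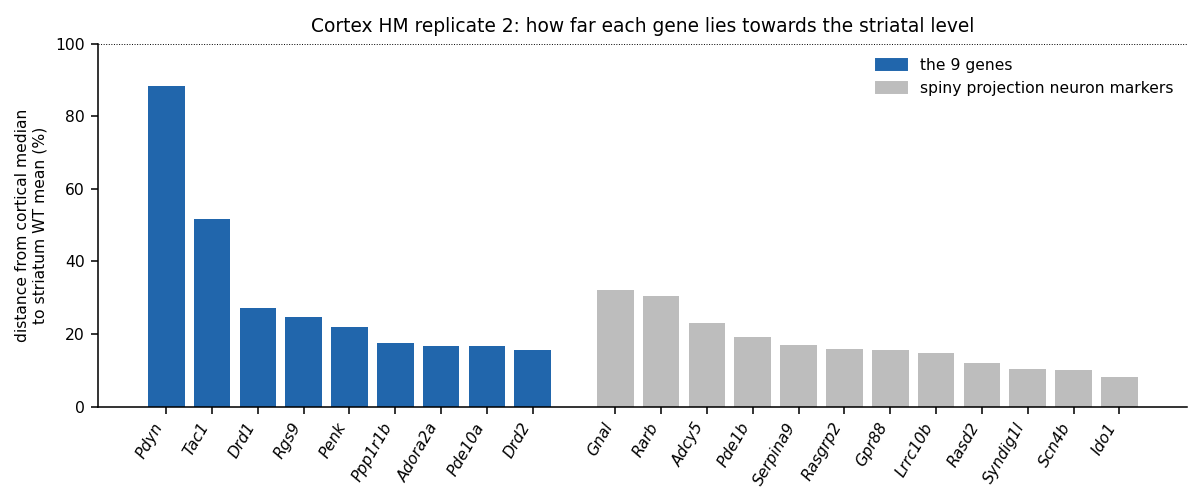
Position of cortex HM replicate 2 between the median of the other 14 cortex samples (0%) and the mean of WT striatum (100%), in percent on the scale of normalized counts, for the 9 genes (blue) and 12 spiny projection neuron markers (grey). Pdyn (88.3%) and Tac1 (51.7%) stand above all others, whose bars run from 8.03% to 32.0%.

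With this sample included, all 9 genes had a higher mean in Shank3-HM than in WT cortex, by log2 0.45 for Pdyn up to 1.34 for Drd2, yet none passed the test, the lowest adjusted p being 0.878, and 1 of the 9 (Adora2a) had an unadjusted p under 0.05. In this comparison 0.0121% of all genes were called and 5.49% had an unadjusted p under 0.05. Without the sample, the differences ran from -0.07 for Penk, through 0.03 for Pde10a, 0.04 for Pdyn, 0.05 for Ppp1r1b, 0.13 for Rgs9, 0.14 for Tac1, 0.27 for Drd1 and 0.29 for Drd2, to 0.49 for Adora2a, and again none passed (adjusted p of at least 0.939). The other 4 Shank3-HM samples had Drd2 counts of 72.0, 19.6, 31.8 and 29.2 and Adora2a counts of 144.9, 93.5, 63.5 and 79.5, the highest of both being replicate 1. Replicate 1 also had a mean log2 level of spiny projection neuron markers of 8.82. The cortex samples other than Shank3-HM replicates 1 and 2 had 8.30 to 8.71. The part of this level was not tested. The SD over the 4, 23.2 for Drd2 and 35.2 for Adora2a, exceeded the differences of their means from WT. In Shank3-HT cortex none of the 9 was called either, as none of all genes was (0%), and none had an unadjusted p under 0.05, beside 2.68% of all genes.

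In the striatum, where the spiny projection neurons are, the question was whether loss of the Shank3 exons goes with a change of these genes and whether the pathways differ. None of the 9 genes passed the test in Shank3-HM striatum, where limma called 0.182% of all genes, or in Shank3-HT striatum, where it called 0.00607%. At an unadjusted p under 0.05 there were 3 of 9 in Shank3-HM (Tac1, Pdyn and Adora2a), beside 7.43% of all genes tested, and 0 of 9 in Shank3-HT, beside 7.43% as well. Without WT replicate 5 the same 3 genes were at that level in Shank3-HM, beside 7.65% of all genes, and Penk, Rgs9 and Pde10a were in Shank3-HT, beside 8.22%, while none of the 9 was called in either. The largest differences in Shank3-HM had opposite signs in the pathways. The direct pathway genes were higher, by log2 0.14 to 0.31, and of the indirect pathway genes Adora2a and Penk were lower, by log2 -0.20 and -0.12, with Drd2 at 0.02.

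Tac1, whose substance P is released by direct pathway neurons, had striatal counts of 5891, 5219, 5328, 5419.9 and 5189 in WT, 5613, 5304, 4356, 6089 and 4546 in Shank3-HT and 6003, 5932, 6166, 6774 and 7008 in Shank3-HM mice. Every Shank3-HM sample lay above every WT sample, whereas Shank3-HT overlapped WT on both sides. The Shank3-HM difference was log2 0.24 (SE 0.0803, adjusted p = 0.46), with a 95% confidence interval of 0.066 to 0.40, and the mean was 118% of that in WT. Among all genes of the striatum, 1.10% had all 5 Shank3-HM samples above all 5 WT samples and 0.752% had them all below. Tac1 was the only one of the 9 genes in either class, so 1 of 9 stands beside these shares.

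Pdyn, the dynorphin precursor, had counts of 2583, 2673, 2177, 2593 and 2802 in WT, 2561, 2945, 1917, 3361 and 2615 in Shank3-HT and 2791, 2872, 3404, 3222 and 3657 in Shank3-HM striatum. Of the Shank3-HM samples 4 exceeded every WT sample and the lowest, 2791, was just under the highest WT sample, 2802. The difference was log2 0.31 (SE 0.117, adjusted p = 0.515) and the mean was 124% of that in WT. Drd1 had counts of 8943, 8758, 9122, 8948 and 7318 in WT, 9016, 8955, 7716, 9366 and 7364 in Shank3-HT and 8642, 9194, 9595, 9712 and 10097 in Shank3-HM striatum. Again 4 of 5 Shank3-HM samples exceeded every WT sample, but the difference was smaller, log2 0.14 (SE 0.0739, adjusted p = 0.746), and part of it came from WT replicate 5: without that sample it was 0.08, while those of Tac1 (0.22) and Pdyn (0.34) stayed near their values.

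Adora2a had counts of 10338, 10191, 10017, 10218 and 7746 in WT, 10849, 8999.9, 8646, 9934 and 7987 in Shank3-HT and 8639.7, 7393, 8939, 9188 and 8021 in Shank3-HM striatum. The Shank3-HM samples all lay below the WT mean and below the other 4 WT samples, but WT replicate 5 lay among them. The difference was log2 -0.20 (SE 0.0905, adjusted p = 0.657), and -0.28 (adjusted p = 0.327) without that WT sample. With the level of spiny projection neuron markers as a covariate, an alternative chosen after seeing the data, its adjusted p was 0.0734, the lowest of all alternatives for the 9 genes in this comparison. Set against the mean log2 level of the 12 markers in the same sample, Adora2a was -0.353 to -0.129 in Shank3-HM and -0.0345 to 0.0707 in WT mice relative to the WT mean, so that all 5 Shank3-HM mice lay below all 5 WT mice. On this scale 0.419% of all genes had all Shank3-HM mice below all WT mice and 0.419% had them above. Penk was also among those below (-0.217 to -0.102 in Shank3-HM and -0.0872 to 0.183 in WT mice), which makes 2 of 9, and none of the 9 was among those above, since Tac1 overlapped here (0.123 to 0.413 in Shank3-HM and -0.164 to 0.254 in WT mice). In Shank3-HT none of the 9 separated from WT on this scale, where 0.0910% of all genes lay above and 0.121% below. Without this scaling, 0.752% of all genes had all Shank3-HM mice below all WT mice and 1.10% had them above. Genes that do not follow the markers gain spread by the scaling. The shares on this scale are therefore no like reference for genes that follow the markers, such as Adora2a and Penk.

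Penk, the enkephalin precursor, had counts of 46186, 51967, 41758, 40151 and 33624 in WT, 43582, 37723, 30283, 43185 and 34893 in Shank3-HT and 39892, 38260.4, 36865, 40933 and 38377 in Shank3-HM striatum. WT samples spanned the Shank3-HM samples on both sides, but all 5 Shank3-HM samples were below the WT mean. The difference was log2 -0.12 (SE 0.106, adjusted p = 0.874), and -0.21 (adjusted p = 0.653) without WT replicate 5. Its WT samples had the widest spread of the 9 genes relative to the mean, 42737 ± 6851, against 38866 ± 1576 in Shank3-HM (SD, n = 5 each). Drd2 had counts of 8739.8, 9008, 8203, 8569 and 6469 in WT, 8719.7, 8202, 6975, 8229 and 7396 in Shank3-HT and 7931, 8147, 8634, 8936 and 7663 in Shank3-HM striatum. The 3 groups overlapped throughout, and the difference of Shank3-HM was log2 0.02 (SE 0.0821, adjusted p = 0.983), with an interval of -0.15 to 0.19, and it was -0.06 without WT replicate 5.

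The genes of both pathways showed no shift beyond their spread. Ppp1r1b had striatal counts of 54782, 51212, 51108, 49144 and 39664 in WT and 56797, 46235, 49968, 53226 and 48291 in Shank3-HM mice, which overlapped, with a difference of log2 0.05 (SE 0.0907, adjusted p = 0.946). Pde10a had 59424, 58866, 58282, 58299 and 43558 in WT and 53048, 53919.5, 58437, 61104 and 60353 in Shank3-HM mice, a difference of log2 0.05 (SE 0.0905, adjusted p = 0.95). Rgs9 had 17972, 17986, 18711, 21069 and 16419.8 in Shank3-HM mice beside the WT counts given above, a difference of log2 -0.03 (SE 0.0749, adjusted p = 0.964). In all 3, WT replicate 5 was the lowest of the WT samples, and for Rgs9 and Pde10a it lay far below the other 4. Without it the differences were -0.02 for Ppp1r1b, -0.04 for Pde10a and -0.10 for Rgs9. The 95% confidence intervals of the Shank3-HM differences, -0.14 to 0.25, -0.14 to 0.24 and -0.19 to 0.13 in the same order, bound what the 5 mice per group could show.

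In Shank3-HT striatum 8 of the 9 genes had a mean below WT, from log2 -0.17 for Penk (SE 0.106, adjusted p = 0.774) to -0.02 for Drd1, and Pdyn was at 0.04. The median of the 9 was -0.06 and that of all genes -0.01. Tac1 was at -0.07, Adora2a at -0.06 and Drd2 at -0.05. Without WT replicate 5 again 8 of the 9 were below 0, with a median of -0.13 beside -0.01 over all genes. Penk was then at -0.25, Adora2a at -0.14 and Drd2 at -0.13, and of the direct pathway genes Tac1 was at -0.09, Drd1 at -0.08 and Pdyn at 0.08. No gene of the 9 had Shank3-HT and WT samples that did not overlap, where 0.552% of all genes had Shank3-HT above and 0.419% below. Shank3-HT replicates 3 and 5, the lowest of their group for every gene but Pdyn, were also those with the lowest level of spiny projection neuron markers among the 5 (13.33 and 13.30, against 13.51 to 13.69), replicate 3 having the highest cortical marker level of them (9.03) and replicate 5 the highest choroid plexus level (10.69). Of 10 glial markers, 8 had a higher mean in Shank3-HT than in WT striatum, with a median of log2 0.20, and 6 had an unadjusted p under 0.05, but none was called. Their mean log2 level ranged from 12.39 to 12.80 in Shank3-HT (median 12.65) and from 12.33 to 12.55 in WT (median 12.38). With the level of spiny projection neuron markers as a covariate the Shank3-HT difference of Penk was log2 -0.13 and that of Drd2 -0.02, and with the level of cortical markers they were -0.21 and -0.10, none of the 9 being called in either fit. The part of the glial and choroid plexus levels was not tested.

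**Figure D3:**
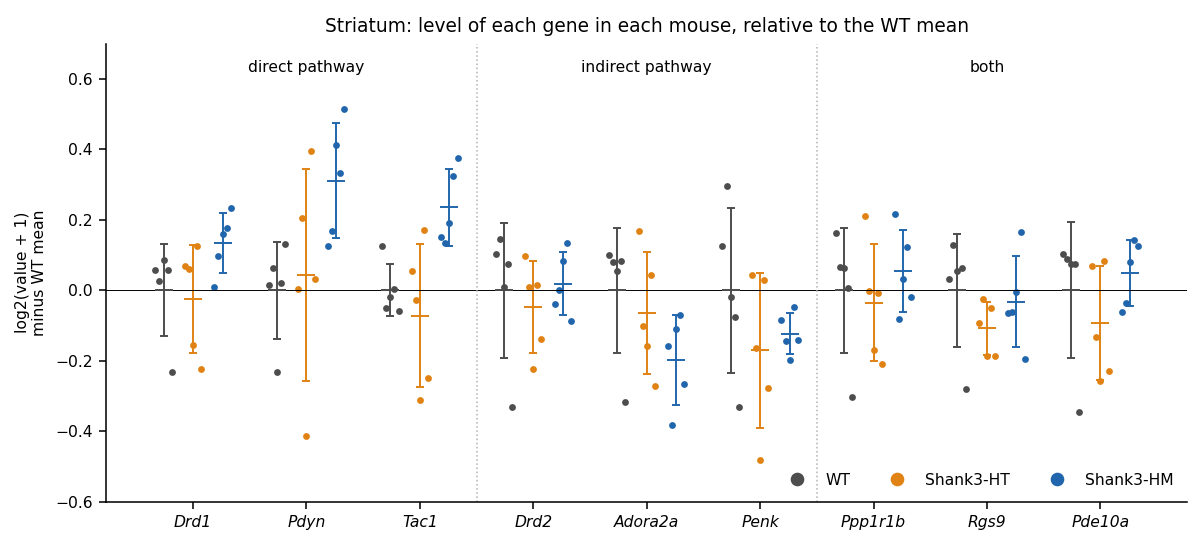
Level of each of the 9 genes in each striatal sample, as log2(value + 1) minus the WT mean, with points for mice and bars for the mean ± SD of 5. Tac1 is the gene with all Shank3-HM points above all WT points, Adora2a has all Shank3-HM points below 0, and WT replicate 5 is the low WT point in most genes.

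Within each mouse, the mean log2 level of Drd1, Pdyn and Tac1 minus that of Drd2, Adora2a and Penk is not moved by a factor that scales all 6 genes alike. Relative to the mean of WT striatum, this difference was -0.04, -0.16, -0.07, 0.00 and 0.27 in the 5 WT mice, -0.06, 0.16, -0.01, 0.20 and 0.08 in the Shank3-HT mice and 0.19, 0.31, 0.33, 0.27 and 0.54 in the Shank3-HM mice. All 5 Shank3-HM mice lay above 4 of the WT mice, and 3 of 5 above every WT mouse, since WT replicate 5 had a value as high as Shank3-HM replicate 4. The mean was 0.33 ± 0.13 in Shank3-HM and 0.08 ± 0.11 in Shank3-HT, around an SD of 0.16 in WT (n = 5 each). The 6 genes were proposed with earlier results of these data known, so the difference is given as a description without a test. Without WT replicate 5 the mean was 0.40 above WT in Shank3-HM and 0.14 in Shank3-HT. With the median of the 3 genes of a pathway in place of their mean it was 0.41 in Shank3-HM and -0.01 in Shank3-HT. With genotype means subtracted, the difference had a Pearson's r of -0.58 with the spiny projection neuron marker level over the 15 samples (Spearman's rho -0.50), and of -0.32 without the 2 samples farthest from the median of that level.

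The difference came from both sides. In Shank3-HM replicate 5, the mouse with the highest value, the direct pathway genes were high and the indirect ones low, while in replicate 4 the indirect genes were at the WT mean and the direct ones above it. WT replicate 5 reached its value otherwise: its 3 indirect pathway genes were each the lowest of the WT mice, while its direct pathway genes were close to the WT mean only on average. Of these, Drd1 (7318) and Tac1 (5189) were also the lowest of the WT mice, and Pdyn (2802) was the highest. In the cortex the same measure, relative to WT cortex, was -1.37 in cortex HM replicate 2 and from -0.63 to 0.40 in all other cortex samples. As a log ratio it depends on the cortical levels, with medians in the other 14 samples of 186, 545 and 232 for Drd1, Pdyn and Tac1. Those of Drd2, Adora2a and Penk were 27.6, 74.4 and 871. On the scale of counts the direct pathway genes of that sample lay nearer to WT striatum (27.2% to 88.3%) than the indirect ones (15.7% to 21.8%). In the hippocampus it ran from -0.39 to 0.29 over the 15 samples, with means of 0.06 in Shank3-HT and 0.02 in Shank3-HM.

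**Figure D4:**
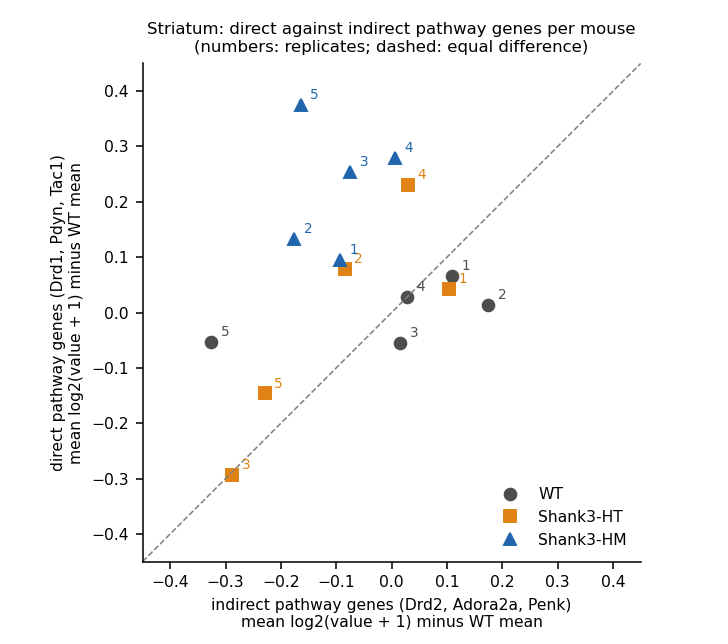
Mean level of the direct pathway genes (y axis) against that of the indirect pathway genes (x axis) in each striatal sample, both as log2(value + 1) minus the WT mean, with replicate numbers beside the points and a dashed line of equal difference. The 5 Shank3-HM points lie above the line by 0.19 to 0.54, and WT replicate 5, at 0.27, lies above it as well.

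Across the 15 striatal samples, with the genotype means subtracted, most of the 9 genes followed the mean level of the 12 spiny projection neuron markers. Pearson's r with that level was 0.93 for Ppp1r1b, 0.92 for Drd2 and Adora2a, 0.89 for Pde10a, 0.88 for Penk, 0.81 for Drd1 and 0.76 for Rgs9, with Spearman's rho from 0.63 to 0.90. The direct pathway peptides had r of 0.59 for Tac1 and 0.11 for Pdyn (rho 0.60 and 0.0036). Without the 2 samples farthest from the median of the marker level, r was 0.38 for Pdyn, 0.52 for Rgs9, 0.56 for Drd1 and 0.61 for Tac1, and between 0.75 and 0.87 for the other 5 genes, so that Pdyn stayed the lowest while Tac1 was then above Drd1 and Rgs9. In each sample a gene and the markers share their library, dissection and normalization, and no p value is attached to these correlations.

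Other genes of the same pathways were looked at as lists taken from general knowledge. Of 6 further direct pathway genes (Chrm4, Isl1, Sfxn1, Eya1, Slc35d3 and Ebf1), all were tested in the striatum and none passed in Shank3-HM. Their median difference was log2 0.04, with 4 of 6 above 0, and the highest was Slc35d3 at 0.16 (adjusted p = 0.753). Of 6 further indirect pathway genes, 5 were tested (Gpr6, Sp9, Upb1, Plxdc1 and Grik3) and none passed. Their median was -0.09, with 1 of 5 above 0, beside a median of 0.00 over all genes. Sp9, a transcription factor of indirect pathway neurons, had the smallest p of these, with log2 -0.29 (SE 0.0998, adjusted p = 0.468). In Shank3-HT striatum none of either list passed, and the medians were -0.01 and -0.05. Not all of these genes are higher in the striatum. Against WT cortex, 5 of the 6 direct pathway genes were called higher in WT striatum and 1 lower. Of the 5 indirect ones 4 were called higher and 1 lower, where 30.0% of all genes were called higher and 29.3% lower.

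**Figure D5:**
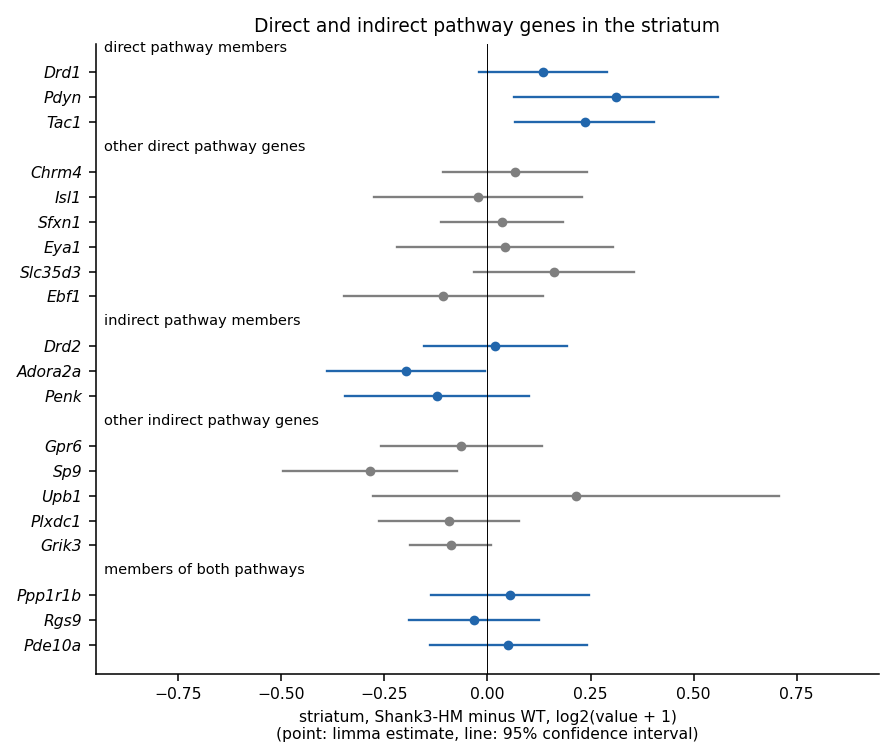
Difference between Shank3-HM and WT striatum in log2(value + 1), with 95% confidence intervals from limma, for the 9 genes (blue) and for the 11 other direct and indirect pathway genes tested (grey). Tac1, Pdyn, Adora2a and Sp9 have intervals that leave out 0 before any adjustment over genes, and the lowest adjusted p among these 20 genes is 0.460.

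The signalling partners numbered 35, all tested: G protein subunits and regulators, adenylyl cyclase 5, subunits of protein kinase A, protein phosphatase 1 and calcineurin, phosphodiesterases and related striatal proteins. None passed in Shank3-HM striatum, 3 had an unadjusted p under 0.05, and the median difference was log2 0.02 with 19 of 35 above 0. The smallest p values were those of Rgs4, a regulator of G protein signalling, at 0.49 (SE 0.113, adjusted p = 0.124), and of Ppp1cc and Ppp1cb, catalytic subunits of the phosphatase that DARPP-32 inhibits, at 0.16 and 0.13 (adjusted p = 0.472 and 0.657). In Shank3-HT none passed or had an unadjusted p under 0.05, and the median was -0.04. Between WT striatum and WT cortex, 26 of the 35 were called higher and 8 lower, where 30.0% of all genes were called higher and 29.3% lower.

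Of the other receptors for the same ligands, 8 of 9 were tested in the striatum and none passed in Shank3-HM, with a median of log2 0.03. The smallest p was that of Oprk1, which encodes the kappa opioid receptor for dynorphin, at -0.25 (SE 0.130, adjusted p = 0.703). Oprd1, the delta receptor for enkephalin, was at 0.09 and Tacr1, the receptor for substance P, at 0.01. The 12 spiny projection neuron markers themselves had a median difference of 0.00 in Shank3-HM and -0.01 in Shank3-HT, and none was called in either. Of 10 cortical excitatory neuron markers, 1 was called in Shank3-HM striatum, Lamp5, which rose by log2 0.53 (SE 0.0671, adjusted p = 0.00178), and the median of the 10 was -0.03. Their median was -0.93 in Shank3-HT striatum, with 2 of 10 above 0 and none called. Their mean log2 level ranged from 7.28 to 9.22 in WT, from 5.25 to 9.03 in Shank3-HT and from 6.67 to 9.07 in Shank3-HM striatum, and their part in the results for the 9 genes was not tested beyond the fit with this level as a covariate, in which none of the 9 passed. Of 6 markers of hippocampal neurons 5 were tested in the striatum and none was called, with medians of log2 0.39 in Shank3-HT and 0.59 in Shank3-HM and a mean log2 level of 4.84 to 6.06 over all striatal samples, against 9.69 to 10.12 in the hippocampus. Of 8 striatal interneuron markers none was called either, with medians of 0.09 and 0.06.

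In the hippocampus none of the 9 genes was called in Shank3-HT or in Shank3-HM, where in each comparison 0.00603% of all genes were called. The only unadjusted p under 0.05 was that of Ppp1r1b in Shank3-HT, beside 5.26% of all genes in that comparison and 4.73% in Shank3-HM, with counts of 1385, 928, 1362, 1754 and 1349.9 in WT and 1018, 1193, 1002, 1017 and 1250.3 in Shank3-HT hippocampus. All 5 Shank3-HT samples were below the WT mean but none below the lowest WT sample, replicate 2, and the difference was log2 -0.28 (SE 0.135, adjusted p = 0.926). All 6 choroid plexus markers also had a lower mean in Shank3-HT than in WT hippocampus (median log2 -1.41, none called), and their mean log2 level was 7.92, 7.30, 9.87, 11.43 and 9.91 in the WT and 6.75, 9.83, 6.06, 6.85 and 9.82 in the Shank3-HT samples, in the order of the counts above. WT replicates 4 and 2, the highest and the lowest in Ppp1r1b, were also the highest and the lowest of the WT samples in this level, and Shank3-HT replicates 2 and 5 were the higher ones in both. The part of the choroid plexus level in the difference was not tested. Over the 9 genes the differences in Shank3-HM hippocampus ran from log2 -0.18 to 0.22 with a median of 0.02. Whether the Shank3-HM difference of a gene depended on the region was tested in the fit of 9 groups. None of the 9 passed for the striatum against the cortex (lowest adjusted p = 0.796, 1 with an unadjusted p under 0.05 beside 5.42% of all genes, 0.0539% of all genes called) or against the hippocampus (lowest adjusted p = 0.996, none with an unadjusted p under 0.05 beside 5.37% of all genes, 0.0718% called). Both contrasts share an estimate of the spread that includes cortex HM replicate 2: the SE of Tac1 against the hippocampus was 0.472, and 0.182 without that sample. Without it none passed either (lowest adjusted p = 0.907 against the cortex and 0.845 against the hippocampus), and the unadjusted p was under 0.05 for 1 of the 9 against the cortex (Adora2a, beside 4.95% of all genes) and for none against the hippocampus (beside 6.00%).

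By the correlation of log2(value + 1) over all 45 samples, which mostly reflects the difference between striatum and the other regions, the genes with patterns most like the 9 were other striatal genes. The 3 most like Drd1 were Tac1, Penk and Adora2a (r = 0.996, 0.995 and 0.994), and the 3 most like Drd2 were Syndig1l, Klhl13 and Tacr1 (0.996, 0.994 and 0.993). Ppp1r1b was most like Pcp4l1 (0.997) and Pdyn most like Dclk3 (0.986). The 3 nearest genes of each of the 9 came to 18 different genes, of which 5 were members of the 9 and 4 were spiny projection neuron markers. Within the striatum, with genotype means subtracted, they came to 27 different genes, of which 2 were members: Pde10a for Drd1 (0.913) and Drd2 for Rgs9 (0.896). There Pdyn was most like Gad2 (0.882), which encodes an enzyme of GABA synthesis, Tac1 most like Bhlhb9 (0.937), Adora2a most like Sorcs2 (0.965) and Penk most like Kcnd2 (0.964), a potassium channel gene, each over 15 samples.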

How the data were processed

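RNA of 45 samples (3 regions, 3 genotypes, 5 mice per group) was sequenced from stranded mRNA libraries. The deposited signal values are normalized counts per gene, which the authors made with Salmon 1.1.0 (quasi-mapping, corrected for GC bias), tximport and the normalization of DESeq2; the submitters' processing notes list R 3.6.2, DESeq2 1.26.0 and the build GRCm38. The values carry decimals, so no count model was used. Column totals ran from 26118607 to 29568983; they follow from the normalization, the sequencing depth is unknown, and no counting interval is given. Columns coded KI were taken as the homozygous mice that the labels call knock-out.

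All tests used log2(value + 1) of genes whose mean over the samples fitted was 10 or more. They were run with limma 3.58.1 under R 4.3.3 (linear fit and moderated variances that follow an intensity trend), with the 3 genotypes of a region in 1 fit and the 9 groups in another for contrasts between regions, and the Benjamini-Hochberg method over all genes tested at a threshold of 0.05. The script was tested on simulated data. Figures and sums per sample were made in Python 3.11.15. The p values set a difference against the spread between samples within groups, with 5 mice per group. That spread is estimated over all groups of a fit and moderated over genes.

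The 9 genes and all gene lists were chosen with earlier results of these data known; lists come from general knowledge. From each list the text names genes past the threshold and at most 3 with the smallest p in Shank3-HM striatum, members of the 2 short pathway lists and receptors named for their ligands being added after their values were seen. The replicate number was not used as a block. Alternatives were limma without the trend, quantile normalization, other filters and pseudocounts, leaving out each replicate, 2 groups per fit, the replicate block, and, chosen after seeing the data, marker levels as covariates and contrasts between regions without cortex HM replicate 2. Gene positions are from GENCODE vM21 on GRCm38.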

Additional observations from a re-analysis of the deposited data

Results flagged for a closer look

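In 16 of the 81 groups of 5 samples (9 genes, 3 regions, 3 genotypes), the highest or lowest sample lay farther from the rest than Dixon's critical value of 0.71 of the range; chance flags about 1 in 20 groups, and the genes are not independent of each other. Of these, 9 were cortex HM replicate 2, the highest of its group for every gene, with normalized counts of 2483 for Drd1, 2329 for Pdyn, 2909 for Tac1, 1312 for Drd2, 1692 for Adora2a, 10018 for Penk, 10088 for Ppp1r1b, 4863 for Rgs9 and 11126 for Pde10a. Striatum WT replicate 5 was the lowest of its group for Drd1 (7318), Adora2a (7746), Rgs9 (15467) and Pde10a (43558). The other 3 were Adora2a in hippocampus HT replicate 5 (29.8, the lowest), Ppp1r1b in cortex HT replicate 1 (2256, the highest) and Pde10a in hippocampus WT replicate 1 (1700.3, the lowest).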

How the results depend on the processing

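None of the 9 genes was called in any comparison of genotypes under any alternative run, and all 9 were called higher in WT striatum than in both other regions under each. With the replicate block, the counts were 0 for each genotype comparison, 9 and 9 for the striatum against cortex and hippocampus, and 2 for the hippocampus against the cortex; the block changed no call. Deviations from the group means of same-numbered samples had r over 0.1 in 4 of 30 pairs within a region (genotypes against WT) and in 16 of 45 pairs of 1 genotype across regions (r up to 0.23). A sample correlated best with its own number in 19 of 60 comparisons with the 5 samples of another group within a region and in 54 of 90 across regions. Numbers without meaning would give 1 in 5. This comes from the data and not from the design, since the labels do not say which samples share a mouse. Contrasts between regions without the block treat these samples as independent. The count for WT hippocampus against WT cortex ranged from 1 to 2 with a WT replicate left out, and was 7 without cortex HM replicate 2. That sample lay 67.6% of the way to the striatum on the log2 scale (median of the 9 genes), against 21.8% on the scale of counts. With medians of 3 genes, the direct minus indirect level of Shank3-HT was -0.0082. The sign of some differences turned. With the cortical marker level as a covariate, Pdyn in Shank3-HT striatum was at -0.0040, and with quantile normalization Pde10a in WT hippocampus against WT cortex was at 0.00043. With replicates left out in turn, the range was -0.072 to 0.90 for Penk in Shank3-HM cortex, -0.11 to 0.049 for Pde10a in WT hippocampus against WT cortex, and in Shank3-HT striatum -0.082 to 0.025 for Drd1, -0.044 to 0.16 for Pdyn and -0.11 to 0.0083 for Ppp1r1b. In Shank3-HM striatum it was -0.064 to 0.055 for Drd2, -0.021 to 0.095 for Ppp1r1b, -0.10 to 0.0085 for Rgs9 and -0.036 to 0.078 for Pde10a. The sign of Ppp1r1b and Pde10a turned without WT replicate 5, that of Drd2 without WT replicate 5 or HM replicate 4, and that of Rgs9 without WT replicate 2 or HM replicate 5, while Penk in Shank3-HM cortex turned without HM replicate 2. The depth of the libraries is unknown, so what it limits cannot be given.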
